A study of Drosophila melanogaster with 12 samples.

Results

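Chronic circadian misalignment (CCM) was produced in Drosophila melanogaster by a light cycle of 14 h light and 14 h dark, which delays the clock time of lights-on by 4 h each day. The comparison described here is the effect of this 28 h cycle that was shared by 2 and 3 weeks of exposure. All 12 RNA-seq samples of the series entered a single model, 6 CCM against 6 control, with the week as a term. Each sample was a pool of 10 male and 10 female whole flies of the isogenic laboratory strain iso31, placed on the schedules within 1 day of eclosion and kept on sucrose-agar food. The 4 groups of 3 samples were CCM flies after 2 weeks, control flies on 12 h light and 12 h dark after 2 weeks, and the same schedules after 3 weeks.

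Only flies still alive at the time of collection could be pooled, and no tissue was separated. RNA was taken in the first 3 h after lights-on in both schedules, so the CCM flies came out of 14 h of darkness and the controls out of 12 h, and the effect of the schedule and of clock time cannot be told apart. Pools of whole flies do not separate fewer cells of a type from less RNA per cell, nor males from females. The labels do not say whether replicates came from separate cohorts, so the tests measure the spread between these pools. The libraries held 17842804 to 23687266 counts (median 21231935) over 13455 to 13705 detected features. Levels are given as CPM, counts scaled to the TMM-normalized library size. Relative to the total counts before TMM scaling, 3 counts were at most 0.168 CPM. Of the 14413 features, 1173 join several genes whose reads could not be separated by the authors' counter, and these are named here with all their genes.

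In flies, the transcription factors CLK and CYC drive per and tim, whose proteins return to the nucleus to repress their own transcription, and light resets this loop by causing the degradation of TIM. The loop runs in pacemaker neurons of the brain and in many peripheral tissues, including fat body, gut and Malpighian tubules, where it times metabolic genes. A light cycle that is longer than the endogenous period asks these clocks for a large phase delay in every cycle.

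Across both weeks, 17 of 12530 features tested differed between CCM and control flies (0.136%). Of these, 10 fell (0.0798%) and 7 rose (0.0559%) in CCM flies. Differences were tested by quasi-likelihood in edgeR, and a feature passed at a Benjamini-Hochberg adjusted p under 0.1, the adjusted p given throughout. The genes that fell had log2 fold changes (log2FC) from -1.34 to -0.40 and those that rose from 0.51 to 0.73. Genes that fell included a predicted fatty acid elongase, a predicted serine peptidase, juvenile hormone esterase, a peroxisomal acyl-CoA oxidase, an amino acid transporter and a sugar transporter. Genes that rose included a predicted glycerophosphodiesterase, a predicted phospho-lyase, an aldo-keto reductase and a UDP-glycosyltransferase. At an unadjusted p under 0.05 there were 813 lower (6.49%) and 549 higher features (4.38%), and the median log2FC of all features tested was 0.0016. The count depended on single samples, with 80 features past the threshold without control week 2 replicate B, 14 without CCM week 2 replicate B and 2 to 10 without any other single sample. Features at an unadjusted p under 0.05 numbered 1362 in the main fit and 2445 of 12631 without control week 2 replicate B. They numbered 744 of 12623 without control week 2 replicate C, and these were the extremes over samples left out. Fits of a single week had 700 of 12356 in week 2 alone and 1462 of 12208 in week 3 alone. Counts in gene lists from such fits are to be read beside these totals. DESeq2 called 154 features (1.23%) and limma's voom with sample weights 125 (0.998%), and all 17 were among both. The mean of the separate contrasts of each week gave 8 calls (0.0638%), all among the 17, and a model without a term for week gave 0 (0.0%), with 464 features at an unadjusted p under 0.05. Counts of calls in gene lists are those of edgeR unless another tool is named.

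All 17 features had the same sign in both weeks, and in all 17 the 3 CCM samples lay wholly on one side of the 3 control samples in week 2 and again in week 3. The 17 were selected by their shared effect in these same samples, so this agreement between the weeks is not independent support. Over all features tested, 166 (1.32%) separated in this way in the same direction, 91 lower (0.726%) and 75 higher (0.599%), against 59 (0.471%) that separated in opposite directions. Within a single week, 1677 features (13.4%) separated in week 2 and 2160 (17.2%) in week 3. For such features an exact permutation test that exchanges schedules within each week gives, by construction, a two-sided p of 0.005, the smallest that its 400 arrangements allow, and 166 features (1.32%) were at this p. The plot of the 17 features by sample shows the levels behind these counts.

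**Figure D1:**
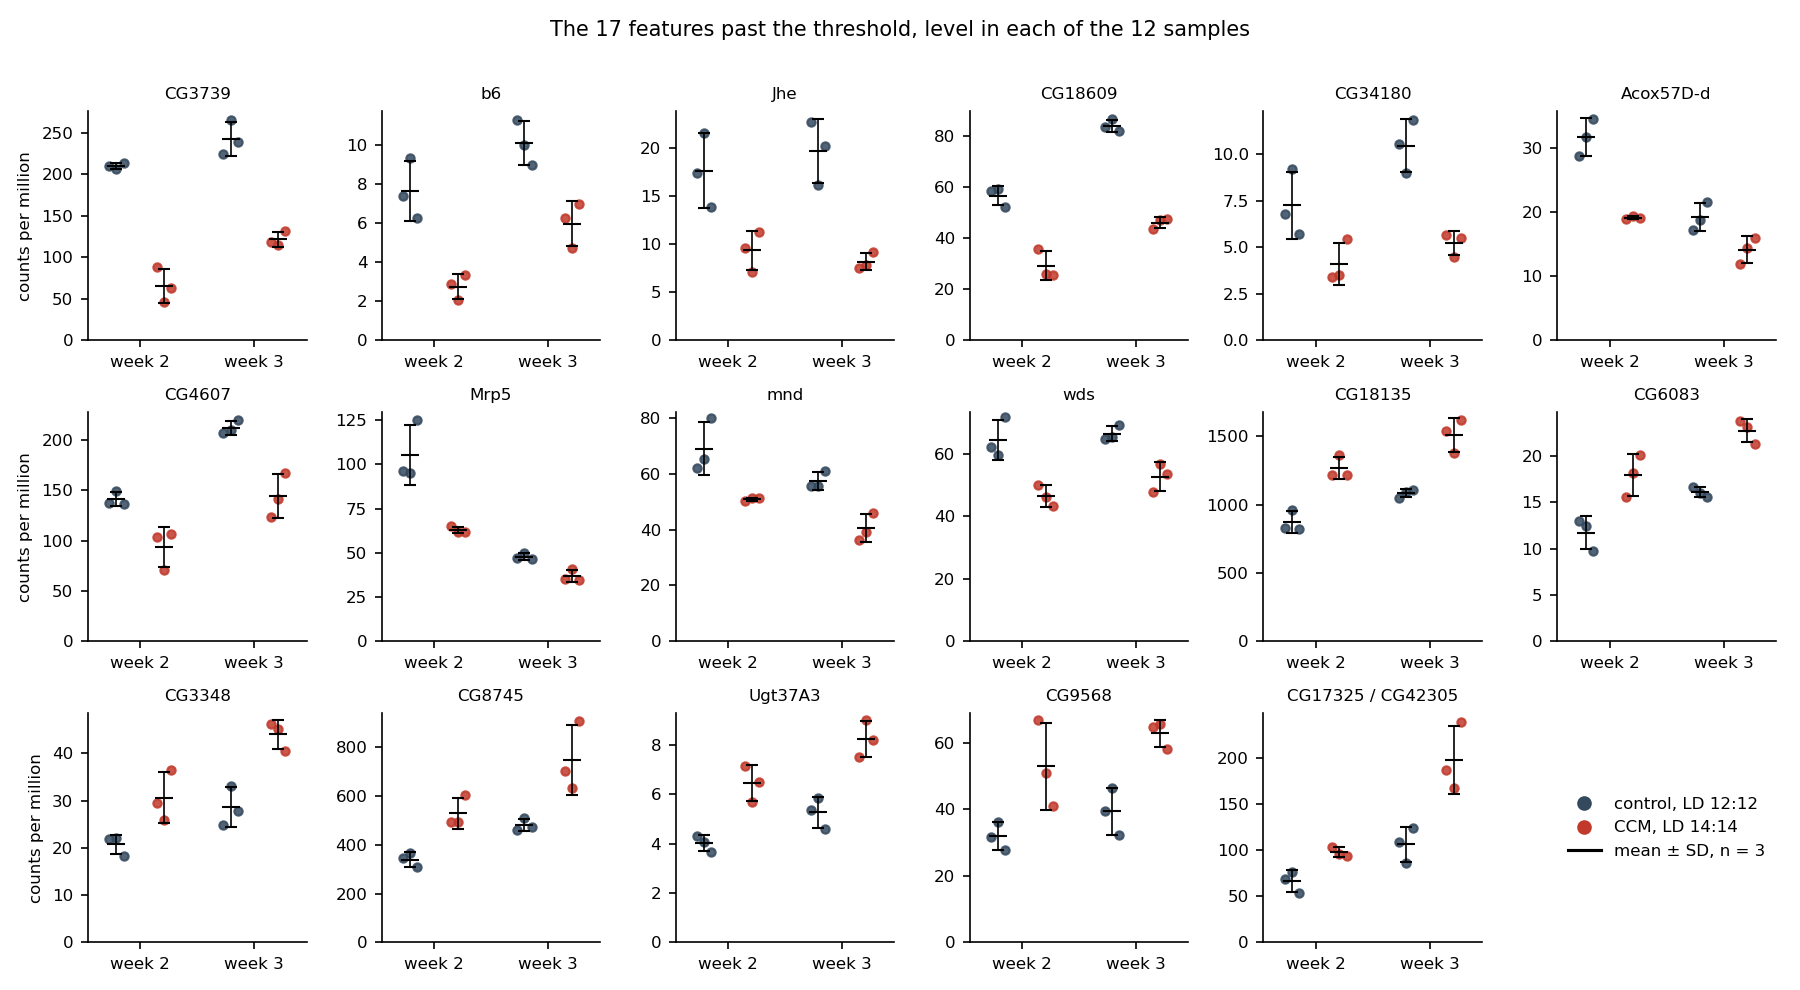
Level in CPM (y axis, from 0) of the 17 features past the threshold in each of the 12 samples, in order of log2FC, with control samples in dark blue, CCM samples in red and bars for the mean ± SD of 3 samples. In every panel the CCM points of a week lie wholly below (first 10 panels) or wholly above (last 7) the control points of the same week.

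Among lipid genes, the smallest adjusted p of the data set belonged to CG18609, a predicted very long chain fatty acid elongase on chromosome 2R (18742517 to 18743626). In week 2 the CCM samples were at 35.7, 26.1 and 25.6 CPM and the controls at 58.4, 59.4 and 52.3 CPM. In week 3 they were at 43.5, 46.9 and 47.7 CPM against 83.6, 86.6 and 81.8 CPM. The highest CCM sample of week 3 thus remained below the lowest control sample of week 2. CG18609 fell by 0.91 on the log2 scale (SE 0.083, adjusted p = 0.0012), with log2FC of -0.96 in week 2 and -0.87 in week 3. It was past the threshold in each of the 12 fits that left out 1 sample.

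Fatty acid elongases add carbons to acyl chains for membrane and cuticle lipids. Of 18 elongases tested, 1 fell and none rose in edgeR (2 passed in DESeq2 and 1 in voom with sample weights), and 4 were lower and 0 higher at an unadjusted p under 0.05, with a median log2FC of -0.18. Without CCM week 2 replicate A 8 were lower, without control week 3 replicate C 7, without control week 2 replicate B 6 and without CCM week 2 replicate B 3. Without control week 2 replicate B or CCM week 3 replicate C 1 was higher. In week 2 alone 1 was lower, and in week 3 alone 5. The 3 next to CG18609 by p were CG9459 (log2FC -0.36, SE 0.11, adjusted p = 0.37), CG9458 (-0.31, SE 0.12, adjusted p = 0.42) and CG6660 (-0.24, SE 0.090, adjusted p = 0.43). CG9459 and CG9458 are neighbours on 3R (9817428 to 9818395 and 9818914 to 9819877), and in week 3, CCM samples of both lay below all controls, while in week 2 the groups overlapped.

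Acox57D-d, an acyl-CoA oxidase of peroxisomal fatty acid oxidation on 2R (21389405 to 21392439), was at 18.9, 19.4 and 19.1 CPM in CCM flies and 28.7, 31.8 and 34.6 CPM in controls after 2 weeks. After 3 weeks it was at 11.9, 14.5 and 16 CPM against 17.2, 18.9 and 21.5 CPM. The groups did not overlap in either week, and the level was lower in week 3 than in week 2 on both schedules. Acox57D-d fell by 0.59 on the log2 scale (SE 0.095, adjusted p = 0.066). Of 27 genes of fatty acid activation and oxidation, it was the single one past the threshold, and 5 were lower and 1 higher at an unadjusted p under 0.05 (median log2FC -0.043, or 0.0030 with offsets for transcript length). DESeq2 called 3 of them and voom with sample weights 2. Without control week 2 replicate C or control week 3 replicate C 3 were lower, and without control week 2 replicate B 3 were higher. The median of the list changed sign, from -0.0909 in week 2 to 0.0605 in week 3. In week 2 alone 4 were lower and 1 higher at this p, and in week 3 alone 1 and 0. CG4830, listed among the acyl-CoA synthetases, was at 1.34 to 3.20 CPM in CCM flies and 6.68 to 8.41 CPM in controls in week 2, but at 1.62 to 3.50 CPM and 1.72 to 5.26 CPM in week 3 (log2FC -1.87 and -0.50, adjusted p of the shared effect 0.37). CG8834, also predicted to activate fatty acids, had a log2FC of -0.51 (adjusted p = 0.30), again with groups apart in week 2 and overlapping in week 3. Acsx1R had the opposite sign at 0.69 (adjusted p = 0.37). Among 23 genes of fat synthesis, storage and lipolysis none passed the threshold (1 in DESeq2), and ATPCL, the ATP citrate lyase that supplies acetyl-CoA for lipogenesis, was the 1 gene at an unadjusted p under 0.05 (log2FC 0.28, adjusted p = 0.30).

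CG18135, a predicted glycerophosphodiesterase on 3L (18990026 to 18998283), was the most abundant feature past the threshold. In week 2 it was at 1218, 1361 and 1220 CPM in CCM flies and 832, 962 and 823 CPM in controls. In week 3 the values were 1536, 1377 and 1619 CPM against 1052, 1093 and 1105 CPM. All 6 CCM samples exceeded all 6 controls, across the weeks as well as within them. CG18135 rose by a log2FC of 0.51 (SE 0.055, adjusted p = 0.024). CG8745, a predicted phospho-lyase of the kind that breaks down phosphoethanolamine, on 3L (13860027 to 13866905), was at 491, 494 and 603 CPM in CCM flies and 344, 366 and 307 CPM in controls of week 2. In week 3 it was at 702, 632 and 908 CPM against 461, 509 and 473 CPM. CG8745 rose by a log2FC of 0.64 (SE 0.095, adjusted p = 0.039) and its fitted effect was 0.64 in week 2 and 0.64 in week 3.

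Among peptidases, CG3739, a predicted serine carboxypeptidase-type enzyme, had the largest fold change of the 17. In week 2 the CCM samples were at 87.7, 46.5 and 62.5 CPM against 210, 206 and 214 CPM in controls. In week 3 they were at 119, 114 and 132 CPM against 224, 265 and 239 CPM. In week 2 the spread was wider in CCM flies (65.6 ± 20.8 CPM, SD, n = 3) than in controls (210 ± 3.95 CPM), and no sample of one group reached the other. CG3739 fell by 1.34 on the log2 scale (SE 0.18, adjusted p = 0.0075). Its log2FC was -1.68 in week 2 and -1.0 in week 3, a difference with an unadjusted p of 0.020 (adjusted p = 0.91). Together with CG18609 it was past the threshold in every fit that left out 1 sample.

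CG3739 lies on 3R (19393360 to 19395188) directly beside 2 relatives of the same predicted peptidase family, CG18493 (19390270 to 19392132) and CG3734 (19387861 to 19389866). CG3734 was at 25.0 to 35.5 CPM in CCM flies and 40.3 to 46.9 CPM in controls in week 2, and at 26.9 to 37.4 CPM against 40.0 to 46.9 CPM in week 3. Its groups did not overlap in either week, but its log2FC of -0.48 (SE 0.11) did not pass the adjusted threshold (adjusted p = 0.15). CG18493 had a log2FC of -0.38 (adjusted p = 0.39), with groups apart in week 2 and overlapping in week 3. CG9953, a family member on 3L, had a log2FC of -0.027 (adjusted p = 0.87). Of the 4 members tested, 1 fell, 3 were lower at an unadjusted p under 0.05, and the median log2FC was -0.43. The list was drawn up around CG3739, and reads of close relatives may be assigned to the wrong copy.

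Juvenile hormone esterase (Jhe) degrades juvenile hormone, which in adult flies supports reproduction. Jhe, on 2R (16119793 to 16122773), was at 9.59, 7.12 and 11.2 CPM in CCM flies and 17.4, 21.5 and 13.8 CPM in controls of week 2. In week 3 it was at 7.48, 7.84 and 9.15 CPM against 22.7, 16.1 and 20.2 CPM. The highest of the 6 CCM values was below the lowest of the 6 control values. Jhe fell by 1.09 on the log2 scale (SE 0.16, adjusted p = 0.025), with log2FC of -0.91 and -1.27 in weeks 2 and 3, and its level did not move with the week (log2FC of week 3 against week 2 -0.0092, adjusted p = 0.96).

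CG4607, a sugar transporter of the major facilitator family on X (7069413 to 7072689), was at 103, 70.8 and 106 CPM in CCM flies and 137, 149 and 137 CPM in controls of week 2. In week 3 it was at 124, 141 and 167 CPM against 207, 209 and 220 CPM. It fell by 0.58 on the log2 scale (SE 0.11, adjusted p = 0.078). nebu, another sugar transporter, was at 371 to 425 CPM in CCM flies and 616 to 733 CPM in controls in week 3, but the groups overlapped in week 2 (shared log2FC -0.56, adjusted p = 0.15). Other sugar transporters had the opposite sign, such as CG15408 (log2FC 0.54, adjusted p = 0.29) and the trehalose transporter homologue Tret1-2 (0.48, adjusted p = 0.35). Of 24 sugar transporters, 1 fell and none rose (4 passed in DESeq2 and 3 in voom with sample weights), 2 were lower and 7 higher at an unadjusted p under 0.05, and the median log2FC was 0.11. The number higher was 3 without CCM week 2 replicate C, control week 2 replicate A, CCM week 3 replicate C or control week 3 replicate B and 4 without control week 3 replicate A or C. In week 2 alone 2 sugar transporters were lower and 0 higher at this p, and in week 3 alone 2 and 7. Their median log2FC was 0.14 in week 2 and 0.036 in week 3. None of 15 glycolytic genes passed the threshold, and 1 was higher at an unadjusted p under 0.05 (Ald1, the aldolase, log2FC 0.17, adjusted p = 0.45).

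minidiscs (mnd), a leucine transporter, is on 3L (14985100 to 14991667). It was at 50.3, 51.4 and 51.2 CPM in CCM flies and 62.0, 65.2 and 79.8 CPM in controls after 2 weeks, and at 36.3, 39.2 and 46.0 CPM against 55.5, 55.5 and 61.1 CPM after 3 weeks. It fell by 0.47 on the log2 scale (SE 0.076, adjusted p = 0.066). slimfast (slif), a transporter of cationic amino acids that was chosen after its values were seen, had a log2FC of -0.65 (SE 0.15, adjusted p = 0.15) and its groups overlapped in week 3. The ABC transporter Mrp5 (named CG4562 by the authors), on 3R (19865417 to 19875678), was at 65.1, 62.0 and 61.8 CPM against 96.4, 94.9 and 125 CPM in week 2, and at 35.1, 40.9 and 34.8 CPM against 46.9, 50.0 and 46.4 CPM in week 3. Mrp5 fell by 0.56 on the log2 scale (SE 0.094, adjusted p = 0.066), but with offsets for transcript length its adjusted p was 0.29. A further 4933 counts of Mrp5 were held by the feature it shares with CG4686, beside the 16230 used here.

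Of the other genes that fell, wds, the homologue of the histone methyltransferase subunit WDR5, had the smallest change. It was at 50.0, 46.0 and 43.2 CPM in CCM flies and 62.0, 59.6 and 71.8 CPM in controls of week 2, and at 47.7, 56.7 and 53.6 CPM against 64.6, 65.4 and 69.2 CPM in week 3. All 6 CCM values of wds were below all 6 control values (log2FC -0.40, SE 0.065, adjusted p = 0.085). b6, on X (1686624 to 1690187), was at 2.05 to 3.32 CPM in CCM flies against 6.27 to 9.34 CPM in week 2 and at 4.72 to 6.97 CPM against 9.01 to 11.3 CPM in week 3. b6 fell by 1.11 on the log2 scale (SE 0.19, adjusted p = 0.066), more in week 2 (-1.48) than in week 3 (-0.76), a difference with an unadjusted p of 0.048. CG34180, on 2L (6060510 to 6060938), was at 3.38 to 5.42 CPM against 5.74 to 9.23 CPM and at 4.48 to 5.66 CPM against 9.03 to 11.8 CPM (log2FC -0.91, SE 0.16, adjusted p = 0.078). No role is given here for b6 or CG34180.

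Ugt37A3, a UDP-glycosyltransferase on 3R (12741958 to 12743680), was at 7.14, 5.70 and 6.52 CPM in CCM flies and 4.32, 4.07 and 3.67 CPM in controls of week 2, and at 7.53, 9.01 and 8.20 CPM against 5.37, 5.84 and 4.60 CPM in week 3. It rose by a log2FC of 0.66 (SE 0.081, adjusted p = 0.066). CG6083, an aldo-keto reductase on 3L (11624528 to 11626125), was at 15.6, 18.1 and 20.1 CPM against 13, 12.4 and 9.70 CPM in week 2 and at 23.7, 23.2 and 21.3 CPM against 16.7, 16 and 15.6 CPM in week 3. It rose by a log2FC of 0.56 (SE 0.086, adjusted p = 0.066). Both genes were higher in every CCM sample than in every control of the same week.

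Cytochrome P450 enzymes oxidize xenobiotics and hormones. Of 77 P450 features tested, none passed the adjusted threshold in edgeR, against 6 in DESeq2, 6 in voom with sample weights and 5 in edgeR without control week 2 replicate B. In edgeR, 8 were lower and 14 higher at an unadjusted p under 0.05, and the median log2FC was 0.14. Without control week 2 replicate B, 25 were higher. The feature of the near-identical pair Cyp12d1-p and Cyp12d1-d was at 22.3 to 24.4 CPM in CCM flies and 12.6 to 19.2 CPM in controls of week 2, and at 33.3 to 42.5 CPM against 26.1 to 30.9 CPM in week 3 (log2FC 0.57, SE 0.12, adjusted p = 0.14). Cyp6a16 had a log2FC of 0.84 (adjusted p = 0.18), Cyp28d1 of 0.50 (adjusted p = 0.28) and Cyp6g2 of 0.56 (adjusted p = 0.29), the last of these with groups apart in both weeks. Among 34 glutathione S-transferases 0 were lower and 5 higher at an unadjusted p under 0.05 (median log2FC 0.078, with 9 higher without control week 2 replicate B and 2 without CCM week 3 replicate C or control week 3 replicate B), led by GstT4 (0.38, adjusted p = 0.30), and DESeq2 called 1. Their median was -0.0081 in week 2 and 0.215 in week 3. In week 2 alone 1 was lower and 1 higher, and in week 3 alone 0 and 9. Among 24 antioxidant genes 0 were lower and 4 higher (median 0.087, with 1 call in DESeq2 and 1 in voom with sample weights), with the metallothionein MtnD at 0.61 (adjusted p = 0.38) and catalase (Cat) at 0.22 (adjusted p = 0.43). With offsets for transcript length the glutathione S-transferase and antioxidant medians were 0.028 and 0.040.

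The remaining 3 features that rose carry no role here. The merged feature of CG17325 and CG42305, which have the same coordinates on 2L (18812648 to 18813941), was at 104, 95.5 and 94.0 CPM in CCM flies and 68.9, 76.6 and 53.4 CPM in controls of week 2, and at 187, 168 and 239 CPM against 109, 85.8 and 124 CPM in week 3 (log2FC 0.73, SE 0.14, adjusted p = 0.066). CG9568, on 2L (9010583 to 9011358), was at 40.9 to 66.7 CPM against 27.8 to 36.1 CPM and at 58.2 to 65.6 CPM against 32.2 to 46.5 CPM (log2FC 0.70, SE 0.13, adjusted p = 0.066). CG3348, on 3R (27291535 to 27292209), was at 26.0 to 36.5 CPM against 18.3 to 22.0 CPM and at 40.6 to 46.3 CPM against 25.0 to 33.2 CPM (log2FC 0.59, SE 0.10, adjusted p = 0.066). For CG17325 and CG42305 the fitted effect was 0.56 in week 2 and 0.90 in week 3.

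Just outside the threshold, Thor, the 4E-BP that represses cap-dependent translation, had the smallest p of the higher features that did not pass. Thor was at 437, 426 and 442 CPM in CCM flies and 340, 367 and 330 CPM in controls of week 2, and at 624, 608 and 703 CPM against 542, 471 and 502 CPM in week 3 (log2FC 0.34, SE 0.047, adjusted p = 0.103). Among the lower genes, 3 that encode box H/ACA or C/D small nucleolar ribonucleoproteins, which guide ribosomal RNA modification, were close to the threshold and were chosen after their values were seen. NHP2 was at 33.8 to 38.6 CPM against 46.5 to 52.6 CPM in week 2 and 44.9 to 49.7 CPM against 52.9 to 68.5 CPM in week 3 (log2FC -0.41, adjusted p = 0.103). For nop5 and Nop56 the log2FC were -0.44 (adjusted p = 0.13) and -0.37 (adjusted p = 0.16).

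The difference of the effect between the weeks passed the threshold for 0 of 12530 features (0.0%) in edgeR, with 570 at an unadjusted p under 0.05 (4.55%). For this difference DESeq2 called 2 features and voom with sample weights 0. Fitted effects of the 17 shared genes were larger in week 2 for 12 and in week 3 for 5, and 3 (CG3739, b6 and Mrp5) had a difference at an unadjusted p under 0.05, each with the smaller effect in week 3. The smallest p for a difference belonged to dpy, which encodes a giant protein of the cuticle matrix. dpy was at 11.5 to 19.0 CPM in CCM flies and 9.12 to 12.3 CPM in controls of week 2, and at 2.85 to 3.30 CPM against 6.0 to 7.91 CPM in week 3 (log2FC 0.57 and -1.14, adjusted p of the difference 0.91).

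**Figure D2:**
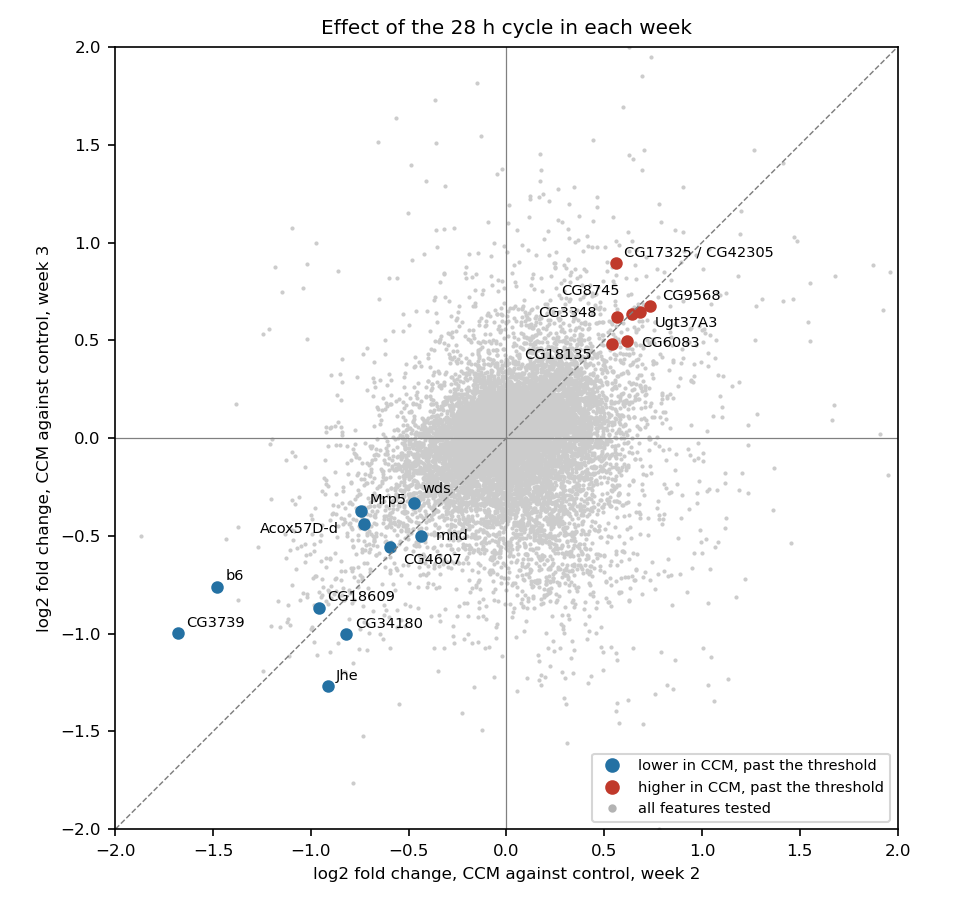
Log2FC of CCM against control in week 2 (x axis) and week 3 (y axis) for all 12530 features tested (grey), with the 10 genes that fell in blue, the 7 features that rose in red and a dashed line of equal effects (features beyond 2 on either axis are outside the plot). The points past the threshold lie in the lower left and upper right quadrants, with CG3739 (-1.68 and -1.0) and b6 (-1.48 and -0.76) farthest above the line among the lower genes and Jhe (-0.91 and -1.27) below it.

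Core clock genes gave no call in edgeR or DESeq2 and 1 in voom with sample weights. Of 15 genes of the core clock and its kinases, 3 were lower and 2 higher at an unadjusted p under 0.05. The median log2FC was -0.19 over both weeks, -0.044 in week 2 and -0.29 in week 3. Week 2 alone had 0 lower and 1 higher genes at this p, and week 3 alone 7 and 2. Pdp1 (log2FC 0.34 and -0.83) and Clk (0.28 and -0.90) were among those that changed sign from week 2 to week 3. The shared median was -0.10 with offsets for transcript length and -0.095 without control week 2 replicate C, and 5 genes were lower without control week 2 replicate B. tim was at 104, 131 and 140 CPM in CCM flies and 144, 125 and 162 CPM in controls of week 2, and at 77.3, 67.0 and 70.1 CPM against 128, 89.5 and 111 CPM in week 3. Its groups overlapped in week 2 and were apart in week 3 (shared log2FC -0.41, SE 0.13, adjusted p = 0.37). per had the opposite sign, at 37.1 to 42.1 CPM against 30.4 to 39.9 CPM in week 2 and 63.5 to 68.6 CPM against 47.1 to 54.6 CPM in week 3 (log2FC 0.28, SE 0.077, adjusted p = 0.37). vri, which encodes a repressor of Clk, had a log2FC of 0.26 (adjusted p = 0.41) and CkIIalpha, a kinase subunit that acts on PER and TIM, of -0.22 (adjusted p = 0.41). DESeq2 called 1 of 28 neuropeptides and peptide hormones and edgeR none. Of 28 neuropeptides and peptide hormones 0 were lower and 4 higher at an unadjusted p under 0.05 (median 0.097), with Hug, the hugin precursor, at 0.41 (adjusted p = 0.35). The number higher was 2 with offsets for transcript length or without CCM week 3 replicate A or C, and 1 without CCM week 2 replicate C, control week 2 replicate C or control week 3 replicate B.

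Digestive enzymes gave no call in edgeR, 2 in DESeq2 and 1 in voom with sample weights. Of 42 digestive proteases and glycosidases, 0 were lower and 8 higher at an unadjusted p under 0.05, 36 had a positive log2FC and the median was 0.20. Leaving out a sample gave 16 higher genes without CCM week 2 replicate B, 3 without CCM week 2 replicate A, CCM week 3 replicate C or control week 3 replicate A, 5 without control week 3 replicate B or C, and 6 to 10 without the others. The maltase Mal-A6 was at 472, 221 and 482 CPM in CCM flies and 213, 213 and 221 CPM in controls of week 2, and at 450, 547 and 665 CPM against 353, 412 and 347 CPM in week 3 (log2FC 0.72, SE 0.20, adjusted p = 0.21). In week 2 a single CCM sample was at the upper end of the controls and the others were far above them. Mal-A8, of the same maltase cluster on 2R, had a log2FC of 0.87 (adjusted p = 0.27). Alp4, the alkaline phosphatase of the Malpighian tubules, was at 246 to 314 CPM against 179 to 245 CPM in week 2 and at 274 to 327 CPM against 173 to 254 CPM in week 3 (log2FC 0.49, SE 0.12, adjusted p = 0.21). It was 1 of 2 genes among 5 tubule markers (median 0.11) that were higher at an unadjusted p under 0.05, and DESeq2 and voom with sample weights each called 1 of the 5.

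Stress genes gave no call in edgeR. In voom with sample weights 1 Hsp70-list feature and 1 gene of endoplasmic reticulum stress passed, and in DESeq2 1 of the latter. Of 25 features of Hsp70, Hsp83 and their co-chaperones, which refold damaged proteins, 14 were higher and 0 lower at an unadjusted p under 0.05. Their median log2FC was 0.64 over both weeks, 0.21 in week 2 and 0.98 in week 3, and it dropped to 0.20, with 7 of 17 genes higher, when features joining several genes were left out. In week 2 alone 0 of 21 features tested were lower or higher at this p, and in week 3 alone 1 of 25 was lower and 14 higher. Without control week 3 replicate C, 9 features were higher, and without CCM week 3 replicate B the median was 0.36. The feature of Hsp70Aa and Hsp70Ab was at 10.5 to 16.8 CPM in CCM flies and 9.61 to 11.8 CPM in controls of week 2, and at 53.8 to 346 CPM against 32.8 to 36.5 CPM in week 3 (shared log2FC 1.44, SE 0.47, adjusted p = 0.39). The Hsp70 copies are nearly identical and share reads, so these features are not independent. Of 12 small heat shock proteins 0 were lower and 3 higher at an unadjusted p under 0.05 (median 0.055), as were 2 of 14 genes of endoplasmic reticulum stress and amino acid response (median 0.055).

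No immune list gave a call. Of 18 antimicrobial peptides 0 were lower and 1 higher at an unadjusted p under 0.05, and their median log2FC was -0.62 in week 2 and 3.02 in week 3 (shared median 0.85). The shared median turned to -0.23 in voom with sample weights and to -0.98 without CCM week 3 replicate C. The summed antimicrobial peptides ranged from 123 to 1696 CPM in CCM flies and 88.0 to 2792 CPM in controls of week 2, and reached 6948 CPM in a single CCM sample of week 3 while all other samples of that week were at 212 to 614 CPM. None of 5 Turandot stress peptides (median 0.46) and none of 13 peptidoglycan recognition proteins (median 0.18) was at an unadjusted p under 0.05. Both medians changed sign between the weeks. The Turandot median was 1.02 in week 2 and -0.27 in week 3. The median of the peptidoglycan recognition proteins was -0.075 and 0.34, and its shared value was 0.018 without CCM week 3 replicate C.

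**Figure D3:**
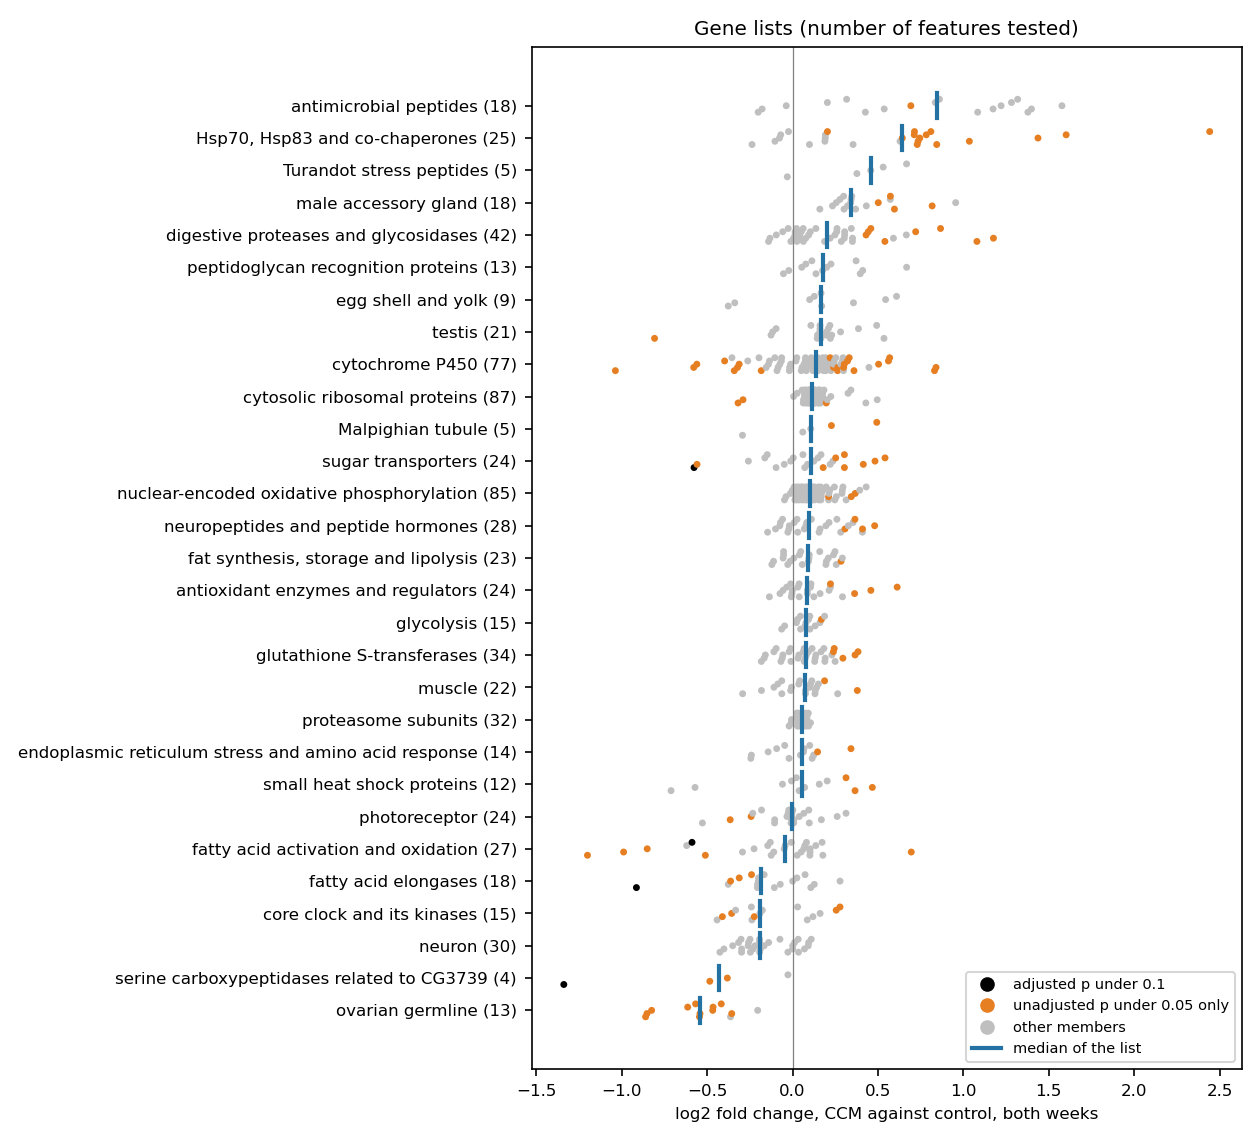
Log2FC of CCM against control over both weeks (x axis) for each tested member of the 29 gene lists (rows, number tested in parentheses), with members past the adjusted threshold in black, those at an unadjusted p under 0.05 in orange, others in grey and the list median as a blue bar. The ovarian germline list has the lowest median (-0.54) and the antimicrobial peptides the highest (0.85), and 4 members in all are black.

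Marker lists of 2 reproductive tissues had a single sign. Of 13 ovarian germline genes, 11 were lower and 0 higher at an unadjusted p under 0.05, all 13 had a negative log2FC, and the median was -0.54 (-0.44 in week 2 and -0.59 in week 3), but none passed the adjusted threshold. osk, the posterior determinant of the oocyte, was at 122, 178 and 143 CPM in CCM flies and 157, 138 and 292 CPM in controls of week 2, and at 28.3, 30.3 and 37.7 CPM against 50.9, 48.6 and 55.8 CPM in week 3. Its groups overlapped in week 2 and were apart in week 3 (log2FC -0.54, SE 0.20, adjusted p = 0.39). The germline differentiation factor bam (-0.85, adjusted p = 0.39), the germ granule helicase me31B (-0.57, adjusted p = 0.42) and gus (-0.36, adjusted p = 0.42) had the same sign. Summed over the list, CCM samples were at 697 to 934 CPM and controls at 710 to 1646 CPM in week 2, and at 309 to 355 CPM against 376 to 512 CPM in week 3. Without control week 2 replicate C, the sample at 1646 CPM, 3 of the 13 genes remained at an unadjusted p under 0.05 and the median was -0.33.

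The 18 male accessory gland genes, which encode seminal fluid proteins, all had a positive log2FC. Of these, 4 were higher and 0 lower at an unadjusted p under 0.05 (15 higher in voom with sample weights), none passed the adjusted threshold in edgeR and 1 in voom, and the median was 0.34 (0.57 in week 2 and 0.18 in week 3). Their transcripts are short (median exonic length 534 bases), and with offsets for transcript length the median was 0.25 and 3 were higher. Sex peptide (SP) was at 27.4, 24.3 and 21.1 CPM in CCM flies and 13.6, 22.9 and 6.44 CPM in controls of week 2, and at 35.2, 27.6 and 35.2 CPM against 12.9, 9.93 and 31.2 CPM in week 3 (log2FC 0.82, SE 0.35, adjusted p = 0.43). The groups overlapped in both weeks. Summed over the list, CCM samples were at 692 to 724 CPM and controls at 342 to 676 CPM in week 2, and at 713 to 1000 CPM against 546 to 919 CPM in week 3. Leaving out 1 sample gave 13 higher genes without control week 2 replicate B, 10 without control week 3 replicate C and 7 without CCM week 3 replicate B. It gave 2 without CCM week 2 replicate A, control week 2 replicate A or C, CCM week 3 replicate A or control week 3 replicate B. Over all features, voom had 1897 of 12530 at an unadjusted p under 0.05, against 1362 in the main fit. The fits behind the counts of 13, 10 and 7 had 2445 of 12631, 1085 of 12636 and 1392 of 12623.

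No defining marker of either tissue was at 0 in any sample, so both were present in all pools. Of 9 egg shell and yolk genes (median 0.17, but -0.020 in voom with sample weights and -0.082 without CCM week 3 replicate C) none was at an unadjusted p under 0.05, and of 21 testis genes (median 0.17) 1 was, the meiotic phosphatase twe (log2FC -0.81, adjusted p = 0.43). The part of the ovarian and accessory gland shares in the 17 calls was not tested.

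**Figure D4:**
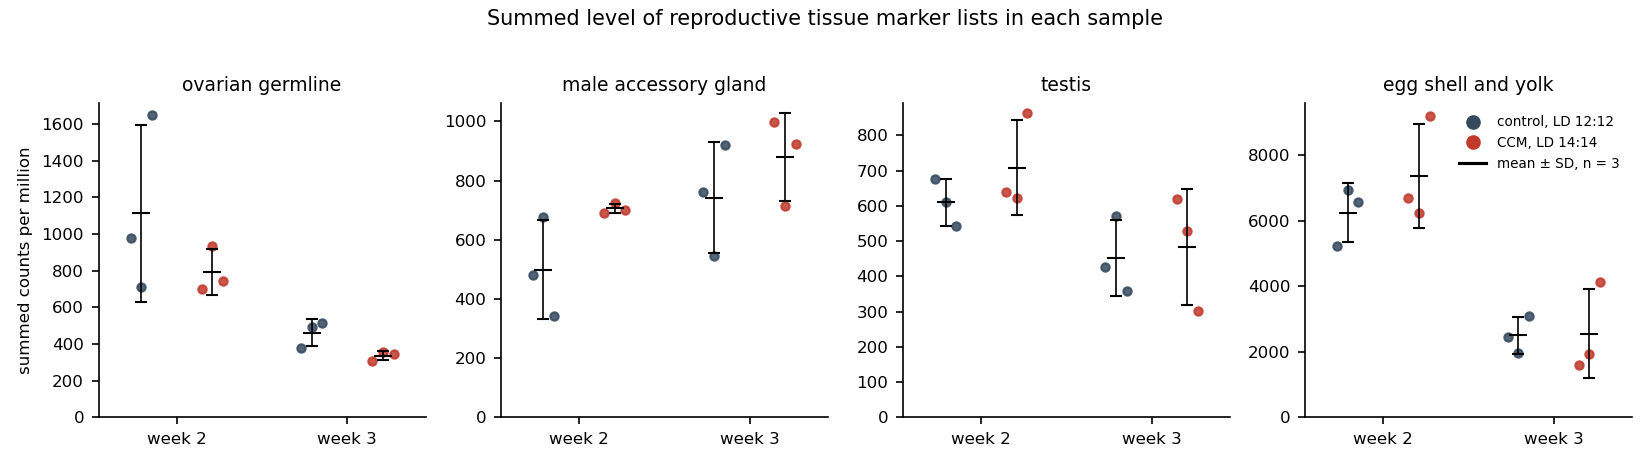
Summed CPM (y axes, from 0) of 4 reproductive tissue marker lists in each sample, by week, with control samples in dark blue, CCM samples in red and bars for the mean ± SD of 3 samples. Ovarian germline sums are lower in CCM than in control flies in week 3 without overlap (309 to 355 against 376 to 512), and accessory gland sums are higher in week 2 without overlap (692 to 724 against 342 to 676).

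The photoreceptor, muscle and neuron lists gave no call in edgeR, and 1 muscle gene passed in DESeq2. Over all features tested, 6.49% were lower and 4.38% higher at an unadjusted p under 0.05. Of 24 photoreceptor genes 2 were lower and 0 higher at an unadjusted p under 0.05 (median -0.0057). Without CCM week 3 replicate B 5 were lower, and without CCM week 2 replicate B 0 were lower and 3 higher. Of 22 muscle genes 0 were lower and 2 higher (median 0.076). Of 30 neuronal genes none was at this p. The neuronal median was -0.19 over both weeks, 0.18 in week 2 and -0.60 in week 3. In week 2 alone 0 neuronal genes were at this p, and in week 3 alone 16 were lower and 0 higher. With offsets for transcript length the neuronal median was -0.058, and it was -0.40 without CCM week 2 replicate C and -0.0031 without the control sample of the same letter and week, the extremes when 1 sample was left out. TpnC41C, a troponin C of muscle, had groups apart in both weeks (log2FC 0.38, SE 0.12, adjusted p = 0.35). Housekeeping lists had small positive medians over both weeks. Of 87 cytosolic ribosomal protein features 85 had a positive log2FC (median 0.11), of 85 nuclear-encoded oxidative phosphorylation features 81 did (median 0.10), and of 32 proteasome subunits 29 did (median 0.055). With offsets for transcript length these medians were 0.055, 0.052 and 0.024. The proteasome median changed sign, from -0.11 in week 2 to 0.22 in week 3. In week 2 alone 0 proteasome subunits were at an unadjusted p under 0.05, and in week 3 alone 15 were higher. At an unadjusted p under 0.05 the ribosomal, oxidative phosphorylation and proteasome lists held 2 lower and 1 higher, 0 and 3, and 0 and 0 features over both weeks. Without control week 2 replicate B there were 53 higher ribosomal and 18 higher oxidative phosphorylation features. Over all features, that fit had 2445 of 12631 at this p, against 1362 of 12530 in the main fit. Act5C, the reference transcript of the study's qPCR, had a log2FC of 0.020 (adjusted p = 0.92).

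The fitted log2FC varied with transcript length, and samples divided by schedule in this respect in week 3 alone. The correlation of log2 length with a sample's deviation from the mean of its week was -0.45, 0.21 and 0.14 in CCM samples and -0.21, -0.39 and 0.46 in controls of week 2, and -0.31, -0.25 and -0.069 against 0.32, 0.097 and 0.17 in week 3. When features were put into 10 bins by length, the median log2FC was 0.15 in the bin of the shortest, with up to 740 exonic bases, and -0.10 in the bin of the longest, from 5386 bases. Across 12326 features with a length, log2FC and log2 length had an r of -0.31, a description over genes that share libraries. In week 3 the medians ran from 0.14 to -0.29, and in week 2 from 0.14 in the bin of the shortest to -0.029 in bin 7 and back to 0.077 in that of the longest. With offsets that removed the length trend of each sample, r was -0.054 and 16 features passed the threshold (0.128%), among them 13 of the 17. The 4 that did not were Mrp5 (adjusted p = 0.29), CG3348 (0.118), CG4607 (0.117) and CG9568 (0.101). The median exonic length was 2120 bases for the 10 genes that fell, 1308 bases for those that rose and 1897 bases over all features tested. The part of RNA quality in this trend was not tested.

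**Figure D5:**
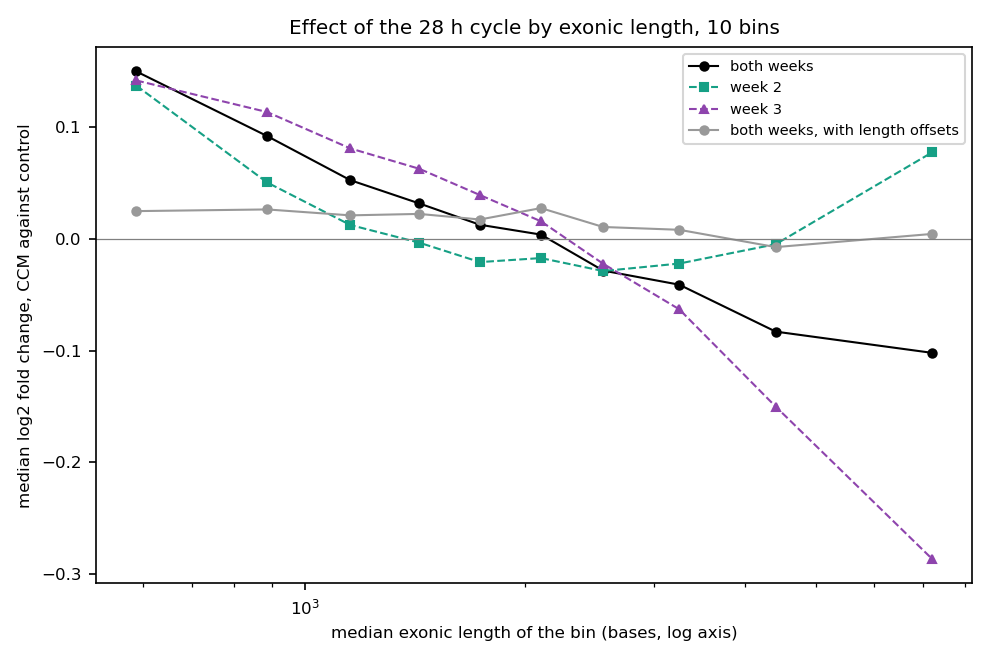
Median log2FC of CCM against control (y axis) in 10 bins of features of equal number, by the median exonic length of the bin (x axis, bases, log scale), for both weeks together (black), each week (dashed) and both weeks with length offsets (grey). The black line falls from 0.15 to -0.10, the week 3 line reaches -0.29 in the longest bin, and with offsets all bins lie between -0.0074 and 0.0275.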

How the data were processed

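Whole-fly RNA from 12 pools was sequenced, 3 pools for each schedule and week. According to the study's methods, after read filtering the authors used STAR for alignment to the fly genome (builds dm6 and BDGP6 in the submitters' processing notes), left non-coding genes out of the annotation and counted with MMquant, which merges genes that share ambiguous reads. What the authors deposited is 1 table per sample of raw counts, without normalization, for each gene or merged feature. Tables hold no row without a gene. Positions and exonic lengths came from Ensembl release 115 of BDGP6, in which 13025 of 13240 single-gene features (98.38%) were found.

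Counts were fitted in R 4.3.3 with edgeR 4.0.16. Features were kept by filterByExpr on the 4 groups, scaled by TMM and fitted by quasi-likelihood with terms for week and schedule, and p-values were adjusted by Benjamini-Hochberg over the 12530 features kept, with the threshold of 0.1 that the study used. The difference between weeks was tested by adding the interaction of schedule and week, and week-specific log2FC come from that fit. Standard errors come from within-week log2 CPM with a pseudocount of 0.5. Exact permutation tests are two-sided over all 400 exchanges of schedules within weeks. In chi-square comparisons no pair of replicates agreed within sampling noise, so all 12 were kept as separate samples.

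Genes named are all those past the threshold, those among the 10 smallest p in each direction, 7 genes singled out for week 2 in the study, up to 4 per list by p, the 5 with the smallest p for a difference between weeks and the qPCR reference, not each of which is described. The comparison, the genes and the 29 lists were chosen with earlier results of these data known. NHP2, nop5, Nop56 and slif were added after their values were seen.

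Alternatives were DESeq2 1.42.0, voom with sample weights in limma 3.58.1, RLE scaling, no filter on low counts, a replicate block, length offsets (a lowess curve of span 0.3 per sample) with and without the block, single genes only, the mean of the within-week contrasts, no term for week, each week alone, an adjusted p under 0.05, and each sample left out. No genome sequence was used here. Tables were joined with pandas 2.3.3 and numpy 2.4.6, and plots drawn with matplotlib 3.10.9, under Python 3.11.15.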

Additional observations from a re-analysis of the deposited data

How the results depend on the processing

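The 17 features past the threshold became 154 (69 lower, 85 higher) in DESeq2 and 125 (45 lower, 80 higher) in voom with sample weights, both of which held all 17. They became 5 at an adjusted p under 0.05, 8 with the mean of the within-week contrasts, 0 without the term for week (464 at an unadjusted p under 0.05), 0 in week 2 alone (700 at an unadjusted p under 0.05) and 2 in week 3 alone. With RLE scaling, no filter, length offsets and single genes only there were 16 or 17. Leaving out 1 sample gave from 2 features, when CCM week 3 replicate A was the one left out, to 80, when it was control week 2 replicate B, and 191 to 512 features in place of 166 that separated in both weeks, where 2 against 3 samples separate more easily by construction. The difference between weeks, with 0 calls, had 2 in DESeq2 and 0 in all other fits. The cause of the other shifts was not tested.

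The replicate letters gave 6 calls when used as a replicate block and 6 with length offsets added, 5 of the 17 in each. For CCM and control samples of one letter, deviations from the group means correlated at 0.090, -0.33 and 0.084 in week 2 and 0.18, 0.49 and 0.47 in week 3, so 3 of the 6 pairs, all of week 3, exceeded 0.1. Pairs of different letters ranged from -0.43 to 0.43 in week 2 and from -0.50 to 0.22 in week 3, so some of these also exceeded 0.1. With no label that ties letters to a cohort, the letters were not taken to pair the samples, and a pairing in week 3 is not excluded.

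Of the genes with a shared log2FC in the report, all kept its sign in all fits except CG9953 and Act5C, both near 0. CG9953 was at 0.0028 without control week 2 replicate B and at -0.052 to 0.0028 over all samples left out, and Act5C was at -0.040 in week 2 alone and at -0.026 to 0.055 over all samples left out. The median over all features stayed within 0.1 of 0 in every fit.

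Depth limits only genes near 0.168 CPM, such as CG42792. With 3 pools per group and both sexes pooled, tissue make-up, sex and clock time at collection cannot be separated from the schedule, and survivors alone were sampled.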

Other observations

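In 59 features (0.471%) the CCM and control samples separated in both weeks but in opposite directions. Alr, which encodes a sulfhydryl oxidase of mitochondria, was at 30.3 to 33.2 CPM in CCM flies and 34.6 to 39.1 CPM in controls of week 2, and at 63.2 to 77.4 CPM against 48.9 to 51.4 CPM in week 3 (log2FC -0.26 and 0.44). CG8299 was at 2.44 to 3.01 CPM against 3.51 to 3.96 CPM and at 2.68 to 3.1 CPM against 1.11 to 2.08 CPM (log2FC -0.42 and 0.94). shot, the spectraplakin that links actin and microtubules, was at 83.6 to 153 CPM against 64.7 to 106 CPM in week 2, with overlap, and at 35.2 to 41.9 CPM against 57.4 to 75.3 CPM in week 3, without (log2FC 0.53 and -0.75). The adjusted p of the difference between weeks in edgeR was 0.91 for each of the 3 genes.

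CG42792 was detected in all 3 CCM samples of week 2 (0.517, 0.983 and 1.88 CPM) and at 0, 0 and 0.0415 CPM in the controls, but in week 3 all 6 samples were under 3 counts or at it (0 to 0.14 CPM in CCM flies and 0 to 0.0553 CPM in controls). Its adjusted p for the effect shared by both weeks was 0.15.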
